A study of Homo sapiens with 14 samples.

Results

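The 33 genes described here are targets of the tumour suppressor p53. They were chosen by gene symbol from the 23106 genes counted in every library, and all 33 symbols were present. RNA was measured by sequencing of polyadenylated RNA in 2 human cancer cell lines, PC3 from a prostate cancer and HCT116 from a colon cancer. Each line was kept in normoxia (21% O2) or in hypoxia (0.5% O2) for 16 h. PC3 was sequenced in 4 and HCT116 in 3 biological replicates per condition. HCT116 carries wild-type p53 and PC3 lacks it. Each p53 state is represented by 1 line, and the lines also differ in tissue of origin and growth medium, so p53 state and line cannot be told apart in any comparison between them. Library totals were 98021966 to 123935458 counts for PC3 in normoxia, 71228454 to 96159803 for PC3 in hypoxia, 136931675 to 147934177 for HCT116 in normoxia and 133067391 to 150630928 for HCT116 in hypoxia. Every hypoxic PC3 library was shallower than every normoxic one.

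p53 is a transcription factor that is normally kept scarce by the ubiquitin ligase MDM2 and accumulates when DNA is damaged or the cell is otherwise stressed. It binds DNA as a tetramer and switches on genes that halt the cell cycle, repair DNA, change metabolism or trigger apoptosis. Several of its targets, MDM2 among them, act back on p53, and many of the targets are also controlled by other transcription factors. Severe hypoxia is one of the stresses reported to stabilise p53, with an effect that depends on the cell and on how little oxygen is left.

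The DNA element that p53 recognises is a pair of decamers, each with a 4-base core of C, any pair of A or T, and G, between 3 purines and 3 pyrimidines. A search for 2 directly adjacent decamers with both cores intact and at most 2 mismatches at the other positions was run within 5000 bases of each gene start, on GRCh37, the build of the deposited counts. The element is its own reverse complement, so both strands were covered. It was found at 15 of the 33 genes (45.5%) and at 868 of 17544 protein-coding genes (4.95%). Many of these targets were first recognised through such elements, so the 2 shares are a description. The sequences below are 6 of these matches, chosen as examples that differ in position and in mismatches, with the cores in capitals, read along the strand of the gene.
CDKN1A: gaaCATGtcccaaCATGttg
BTG2: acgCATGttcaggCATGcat
GADD45A: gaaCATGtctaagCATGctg
ZMAT3: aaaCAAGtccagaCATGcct
FAS: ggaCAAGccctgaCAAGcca
PLK2: aaaCATGcctggaCTTGccc
Distances are counted from the outermost annotated start of each gene, which need not be the start of its main transcript. The element of CDKN1A (chr6:36644226-36644245, plus strand) starts 11 bases upstream of that outermost start, and that of BTG2 (chr1:203272770-203272789, plus strand) 1849 bases upstream. The GADD45A element (chr1:68152458-68152477, plus strand) and the ZMAT3 element (chr3:178787976-178787995, minus strand) lie in introns. The FAS element (chr10:90751066-90751085, plus strand) falls within an exon of an annotated transcript, and the PLK2 element (chr5:57758101-57758120, minus strand) is 2154 bases upstream. Those of ZMAT3 and PLK2 carry 0 mismatches, that of GADD45A 1, and the other 3 printed here 2 each. MDM2, BBC3, BAX, GDF15 and PLK3 held no match in this window, which says only that these letters are not there. The window need not cover the start of the main transcript. GDF15, for example, is annotated over chr19:18485541-18499986, with a canonical transcript of 1200 bases.

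The labels were checked first against hypoxia and tissue genes. Levels are given as CPM, the count of a gene relative to its library total, scaled over all 14 libraries, and adjusted p-values are two-sided, from edgeR, adjusted over all genes tested. All 5 genes that were followed as a check of hypoxia, NDRG1, CA9, BNIP3, PFKFB4 and ANGPTL4, rose in both lines. Among 8 colon markers CDX2, an intestinal transcription factor, stood at 17.65 ± 1.445 CPM (SD, n = 3) in normoxic HCT116 and at 0 counts in PC3, while VIL1, CDH17 and CDX1 were at or near 0 in both lines. Of the 5 colon markers tested, CDX2 and KRT20 were higher and EPCAM and LGR5 lower in normoxic HCT116, and GPA33 was not called. EPCAM, an epithelial adhesion gene and the most abundant colon marker in both lines, stood at 401.6 CPM in PC3 and 316.2 CPM in HCT116. Of the 7 prostate markers HOXB13 was the most abundant in PC3, while KLK3 had 0 counts and KLK2 and FOLH1 at most 2 counts in any PC3 library, so several defining genes of the labelled tissue were absent. The 8 markers of blood cells and fibroblasts summed to 44.2 to 49.5 CPM in normoxic and 51.1 to 60.5 CPM in hypoxic PC3, and to 17.3 to 20.3 and 22.5 to 23.1 CPM in HCT116. The most abundant gene of this list per kilobase of transcript in PC3 was CD68, a macrophage marker. In GENCODE 81.6% of its exon length is shared with another gene model on the same strand. Whether that model was among the RefSeq genes counted is not known, so the origin of its reads is uncertain. CD68 was at 34.9 to 38.6 CPM in normoxic and 40.5 to 52.3 CPM in hypoxic PC3, and at 7.81 to 8.90 CPM in normoxic and 12.3 to 14.3 CPM in hypoxic HCT116. It rose with hypoxia in both lines, by 0.35 (adjusted p = 0.02939, edgeR) and 0.71 (adjusted p = 0.0002669, edgeR) on the log2 scale, and was the only marker of the list called in either, among 4 tested in PC3 and 2 in HCT116. Their part in the results was not tested.

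Some libraries stood apart from their group. Replicate 1 of PC3 was the highest PC3 library of its condition, in normoxia and in hypoxia, for GDF15, CDKN1A, GADD45A and TP53INP1, and the hypoxic library of PC3 replicate 4, the shallowest of all, was low for POLH and MDM4. Normoxic replicate 3 of HCT116 was the highest of its group for RPS27L, FAS, RRM2B, TRIAP1, PMAIP1 and FBXO22. The main results that rest on these libraries are given with and without them. In bulk RNA fewer cells that express a gene and less RNA per cell cannot be told apart.

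**Figure D1:**
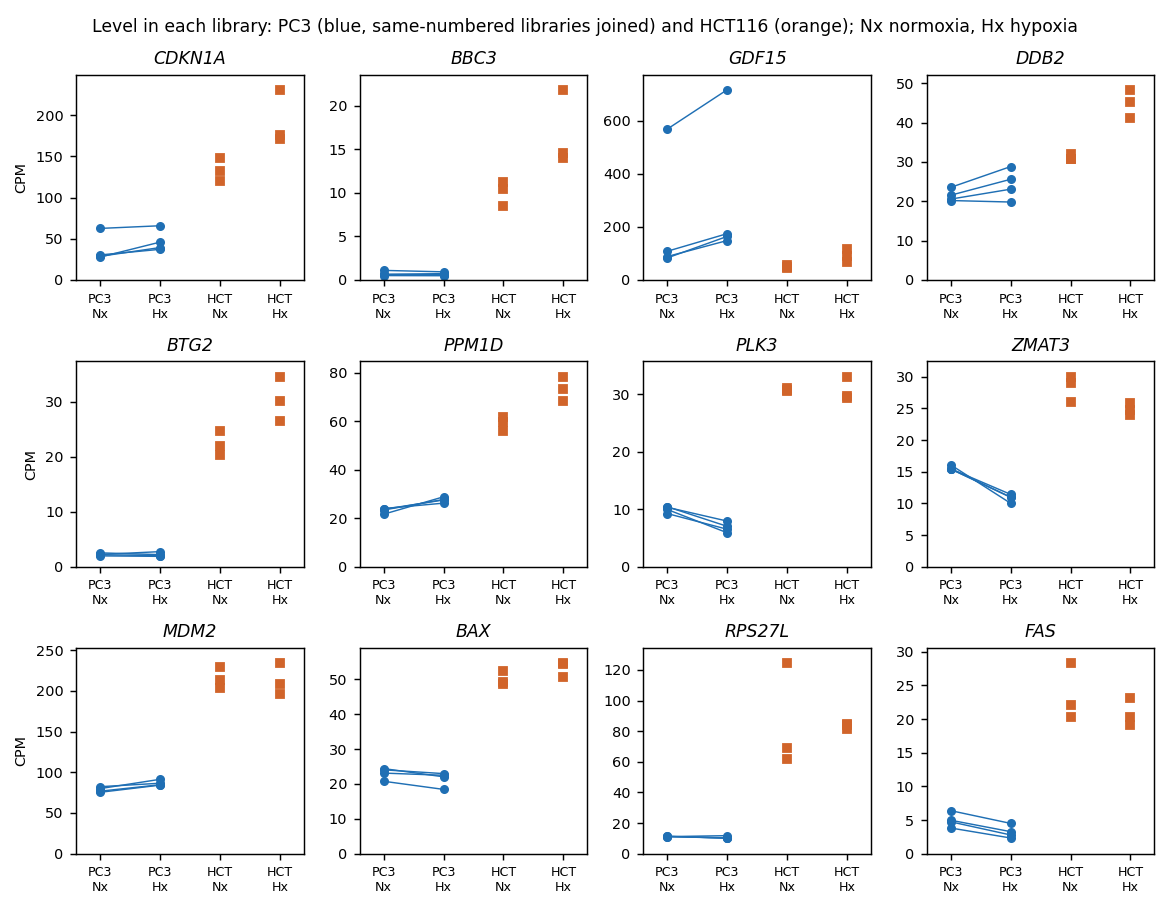
CPM (linear axis from 0) of 12 p53 target genes in each of the 14 libraries, normoxia (Nx) and hypoxia (Hx); PC3 points are joined by replicate number and HCT116 points are not. BBC3 and BTG2 are low in every PC3 library, and GDF15 is at 569 and 717 CPM in the 2 libraries of PC3 replicate 1.

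The first comparison asked how far the targets differ between the lines at baseline. In normoxia 21 of the 33 genes were higher in HCT116, 4 were lower, 6 did not pass the threshold of 0.05 and 2 were too low to test. Of the 31 tested, 80.6% were called, against 83.4% of all 15206 genes tested, so being called at all did not set the targets apart. Higher calls made up 67.7% of the targets tested and 40.5% of all genes, and lower calls 12.9% and 42.9%. The median log2 difference was 0.88 over the targets and -0.03 over all genes. These shares and medians are descriptions and were not tested as a list.

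Of the 6 genes that restrain the cell cycle, 4 were higher in HCT116, 1 was lower and 1 was not called. CDKN1A, which encodes the cyclin-dependent kinase inhibitor p21, stood at 62.6, 30.4, 28.7 and 27.8 CPM in normoxic PC3 and at 120, 148.2 and 132.4 CPM in normoxic HCT116. The groups did not overlap, although PC3 replicate 1 lay above the other 3. The log2 difference was 1.845 ± 0.27 (SE), or 3.59-fold (adjusted p = 0.0001423, edgeR), and it was 2.22 without PC3 replicate 1. BTG2, an antiproliferative partner of the mRNA deadenylation machinery, was at 2.19, 2.53, 2.25 and 1.98 CPM in PC3 and at 20.2, 24.7 and 22.0 CPM in HCT116. Each HCT116 library was thus well above every PC3 library, and the log2 difference was 3.33 ± 0.11 (SE) (adjusted p = 3.877e-09, edgeR). PLK3, a stress-responsive polo-like kinase, and CCNG1, an atypical cyclin, were also higher in HCT116, by 1.64 and 0.78 on the log2 scale. PLK2, a related kinase, differed by -0.21 (95% interval -0.44 to 0.01) and was not called. GADD45A, which binds PCNA and p21, went the other way, at 72.4, 39.4, 39.7 and 40.2 CPM in PC3 and 30.3, 31.5 and 28.7 CPM in HCT116. Its log2 difference was -0.66 ± 0.21 (SE) (adjusted p = 0.0169, edgeR) and -0.39 without PC3 replicate 1. It was not called when HCT116 replicate 3 was left out.

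All 3 genes that act back on p53 were higher in HCT116. MDM2, the ubiquitin ligase that marks p53 for degradation, was at 75.4, 80.0, 76.8 and 82.3 CPM in PC3 and at 203.2, 229.4 and 214 CPM in HCT116. The groups were tight and far apart, with a log2 difference of 1.47 ± 0.06 (SE), or 2.77-fold (adjusted p = 1.34e-08, edgeR). PPM1D, the phosphatase WIP1 that removes activating phosphates from p53, and FBXO22, part of another ubiquitin ligase that acts on p53, were higher by 1.365 and 1.21 on the log2 scale. Without HCT116 normoxic replicate 3 that of FBXO22 was 1.11 and still called. Of the exonic length of FBXO22 16.2% overlaps NRG4 on the other strand, as does 11.1% of that of MDM2 with another gene.

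Among the 10 apoptosis genes 6 were higher in HCT116, 2 were lower, 1 was not called and EDA2R was not tested. The largest difference of all the targets was that of BBC3, which encodes the BH3-only protein PUMA. It was at 1.097, 0.643, 0.503 and 0.628 CPM in PC3 and at 8.54, 11.3 and 10.4 CPM in HCT116. No HCT116 library came near the PC3 range, and the log2 difference was 3.82 ± 0.24 (SE), or 14.1-fold (adjusted p = 2.869e-07, edgeR). BAX, the pore-forming protein of the mitochondrial outer membrane, was at 20.8, 24.4, 23.1 and 24.1 CPM in PC3 and at 49.3, 48.7 and 52.4 CPM in HCT116. That difference was 2.19-fold (1.13 ± 0.07 on the log2 scale, SE), again with no overlap (adjusted p = 1.703e-07, edgeR). FAS, a death receptor, was at 6.39, 4.73, 4.97 and 3.81 CPM in PC3 and at 20.4, 22.1 and 28.3 CPM in HCT116. It was 4.775-fold higher (log2 difference 2.26 ± 0.18, SE; adjusted p = 1.428e-06, edgeR), and 25.7% of its exonic length overlaps a gene on the other strand. AEN, a nuclease of apoptotic cells, TRIAP1, an inhibitor of apoptosis in mitochondria, and PMAIP1, the BH3-only protein NOXA, were higher by 1.15, 1.22 and 0.42 on the log2 scale. Without HCT116 normoxic replicate 3 the log2 difference was 2.105 for FAS, 1.099 for TRIAP1 and 0.33 for PMAIP1, and the 3 calls held.

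The genes that went against the majority in this group were PHLDA3 and TP53I3. PHLDA3, a repressor of AKT signalling, stood at 88.5, 73.9, 72.2 and 75.4 CPM in PC3 and at 19.8, 20.2 and 21.1 CPM in HCT116. Every PC3 library was above every HCT116 library, and HCT116 was 3.77-fold lower (log2 difference -1.91 ± 0.08, SE; adjusted p = 3.519e-08, edgeR). Of its exonic length 18.4% is shared with another gene on the same strand. TP53I3, a quinone oxidoreductase, was at 14.6, 15.2, 14.4 and 15.7 CPM in PC3 and at 6.98, 7.52 and 8.02 CPM in HCT116, a log2 difference of -0.98 ± 0.08 (SE) (adjusted p = 1.605e-06, edgeR). The death receptor gene TNFRSF10B differed by -0.12 on the log2 scale (95% interval -0.30 to 0.05) and was not called. EDA2R, a receptor of the ligand EDA-A2, had 0 counts in all 8 PC3 libraries and reached at most 0.0315 CPM in HCT116, so it was not tested in any comparison.

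In the DNA repair group XPC, DDB2 and RRM2B were higher in HCT116 and POLH was not called. XPC and DDB2, which recognise ultraviolet lesions, were higher by 0.96 and 0.55 on the log2 scale, and RRM2B, a subunit of ribonucleotide reductase, by 0.56, or 0.47 without HCT116 normoxic replicate 3. POLH, the polymerase that copies past ultraviolet lesions, differed by -0.0039 on the log2 scale (95% interval -0.13 to 0.13). Of the exonic length of XPC 24.6% overlaps XPC-AS1 on the other strand.

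The 8 genes of stress response, metabolism and organelle quality were the most mixed, with 3 higher in HCT116, 1 lower, 3 not called and SPATA18 near the detection limit in both lines and not tested. FDXR, a mitochondrial reductase for iron-sulphur cluster and steroid synthesis, was higher by 1.98 on the log2 scale, SESN1, a brake on mTORC1, by 1.78, and TP53INP1, an autophagy and cell death regulator, by 0.88. Without PC3 replicate 1 the log2 difference of TP53INP1 was 1.25 (adjusted p = 5.648e-05, edgeR), and its call was lost when any 1 of 4 other libraries was left out. GDF15, a secreted stress cytokine, was at 569, 83.1, 108.2 and 88.35 CPM in PC3 and at 46.6, 56.4 and 50.7 CPM in HCT116. The groups did not overlap, and HCT116 was 4.14-fold lower (log2 difference -2.05 ± 0.64, SE; adjusted p = 0.01917, edgeR). Without PC3 replicate 1 the log2 difference shrank to -0.85 (adjusted p = 3.006e-05, edgeR), and without any 1 of the HCT116 libraries the adjusted p rose to between 0.05165 and 0.06461. DESeq2 gave GDF15 no adjusted p in this comparison. ACER2, a ceramidase, CMBL, a hydrolase, and DRAM1, a lysosomal regulator of autophagy, differed by 0.07, 0.17 and 0.14 on the log2 scale and were not called.

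Both remaining genes were higher in HCT116. RPS27L, a ribosomal protein paralogue, was at 11.4, 11.2, 11.3 and 11.1 CPM in PC3 and at 61.7, 68.9 and 124.2 CPM in HCT116. PC3 varied little while HCT116 replicate 3 was far above the other HCT116 libraries, and the log2 difference of 2.93 ± 0.21 (SE) (adjusted p = 8.418e-07, edgeR) was 2.55 without it. Reads of RPS27L may be shared with RPS27, its close paralogue, depending on how multiple matches were treated. ZMAT3, an RNA-binding zinc finger protein, was at 15.47, 15.44, 15.43 and 16.1 CPM in PC3 and at 26.1, 30.0 and 29.0 CPM in HCT116, higher by 0.88 on the log2 scale (adjusted p = 1.108e-06, edgeR).

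**Figure D2:**
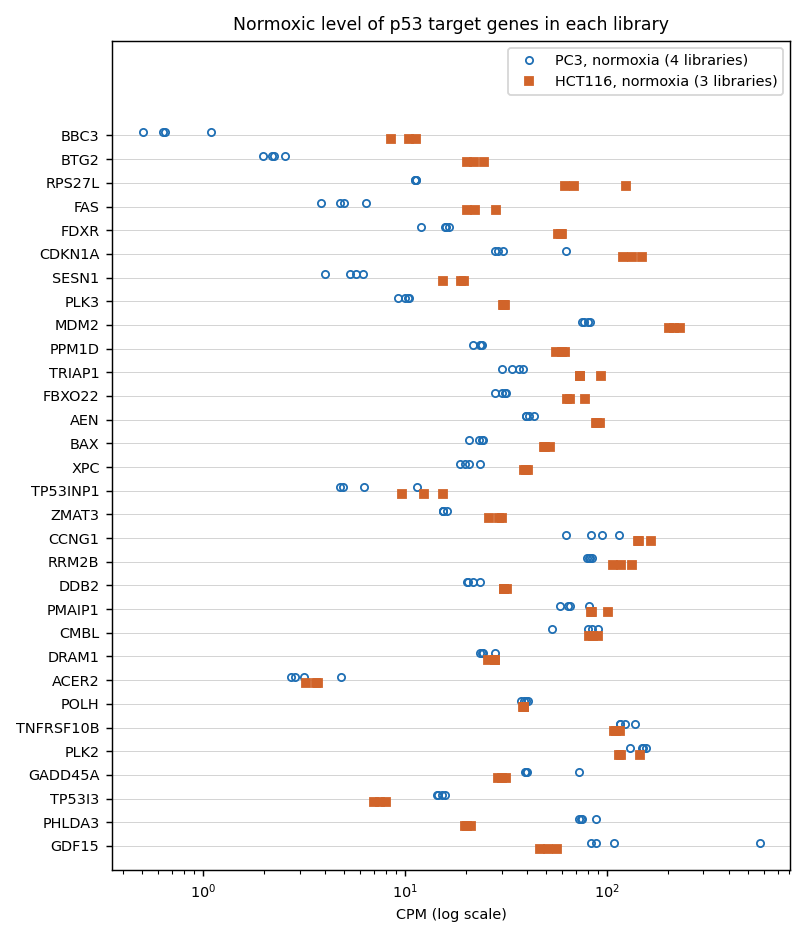
CPM (log axis) of the 31 tested p53 target genes in each normoxic library, with PC3 as open circles (4 libraries) and HCT116 as squares (3 libraries), ordered by the difference between the lines. The libraries of a line lie close together for most genes; GDF15, CDKN1A and GADD45A have 1 PC3 library above the others and RPS27L 1 HCT116 library.

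**Figure D3:**
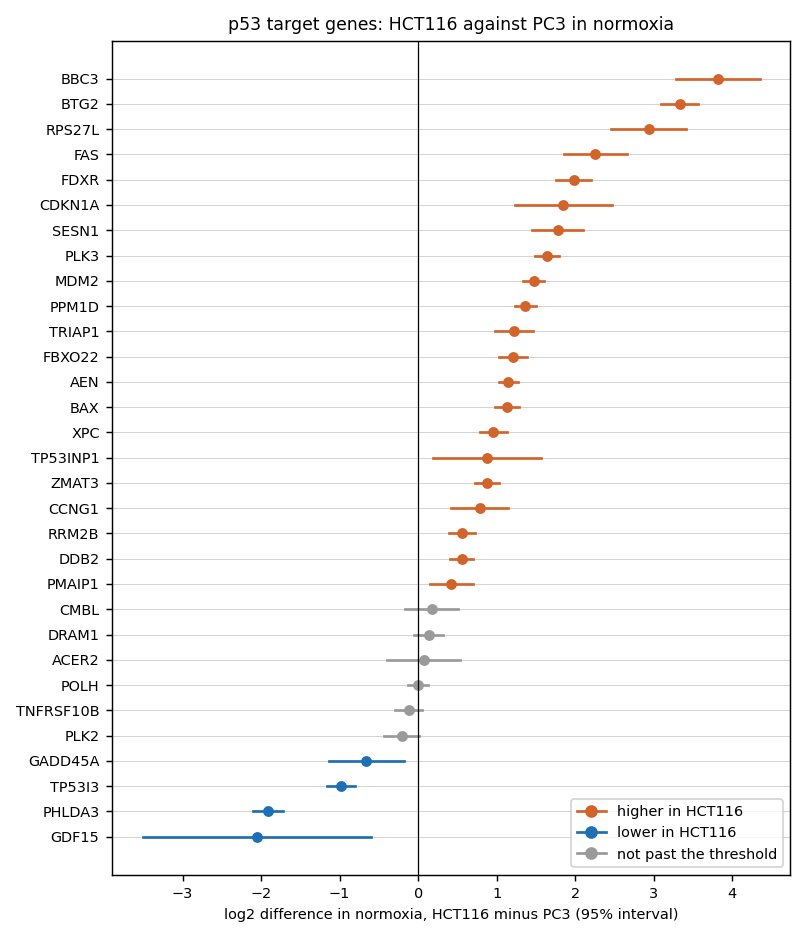
Log2 difference of HCT116 minus PC3 in normoxia for the 31 tested genes, with 95% intervals from the edgeR fit (7 libraries). The 21 genes higher in HCT116 run from PMAIP1 at 0.42 to BBC3 at 3.82, and the 4 lower ones from GADD45A at -0.66 to GDF15 at -2.05.

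The level of a gene relative to others can be compared only per length of transcript. Per kilobase of the canonical transcript, GDF15 was the highest of the targets in normoxic PC3, at 177 CPM per kb, or 77.7 CPM per kb without replicate 1, and PLK2 was next at 52.6 CPM per kb. In normoxic HCT116 TRIAP1 at 69.6, CDKN1A at 63.1, BAX at 63.0 and CCNG1 at 61.6 CPM per kb headed the order, and GDF15 stood at 42.7 CPM per kb. BBC3 was at 0.389 CPM per kb in PC3 and 5.46 CPM per kb in HCT116, below most of the other targets in both lines.

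The hypoxia comparisons share their normoxic libraries with the comparison above, so the results are not independent of it. The second comparison was the response of HCT116, the line with wild-type p53, to hypoxia. Of 32 targets tested 9 rose, 0 fell and 23 did not pass the threshold. The share called was 28.1%, against 25.9% of all 14120 genes tested. All 9 calls were rises, while 14.6% of all genes rose and 11.3% fell, and the median log2 fold change was 0.098 over the targets and 0.0018 over all genes. By edgeR 2 targets had a negative fold change at an unadjusted p under 0.05, as did 17.9% of all genes, and DESeq2 called 1 target lower, RRM2B. With library totals in place of TMM scaling the balance over all genes turned from 2061 higher and 1597 lower to 1286 higher (9.11%) and 3146 lower (22.3%), or 31.4% together, and the targets from 9 and 0 to 7 and 3, the falls then being those of PMAIP1, RRM2B and ZMAT3.

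GDF15 had the largest rise. It was at 46.6, 56.4 and 50.7 CPM in normoxia and at 66.7, 118.5 and 92.1 CPM in hypoxia. The hypoxic libraries were all above the normoxic ones but spread widely, and the log2 fold change was 0.87 ± 0.16 (SE), or 1.825-fold (adjusted p = 0.002847, edgeR). BBC3 went from 8.54, 11.3 and 10.4 CPM to 14.6, 21.8 and 13.99 CPM. Hypoxic replicate 2 was the highest for both genes, and the rise of BBC3 was 1.69-fold (log2 fold change 0.76 ± 0.16, SE; adjusted p = 0.006219, edgeR).

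CDKN1A rose from 120, 148.2 and 132.4 CPM to 170.8, 231.1 and 176.3 CPM. The conditions did not overlap and the log2 fold change was 0.55 ± 0.11 (SE), or 1.46-fold (adjusted p = 0.005772, edgeR). DDB2 rose from 30.8, 31.95 and 30.7 CPM to 45.3, 48.4 and 41.1 CPM, with less spread and a log2 fold change of 0.55 ± 0.07 (SE) (adjusted p = 0.0004275, edgeR). The other 5 rises were smaller, with log2 fold changes of 0.46 for BTG2, 0.33 for PPM1D, 0.32 for POLH, 0.29 for SESN1 and 0.22 for PHLDA3. Those of SESN1 and PHLDA3 were each lost when any of 5 of the 6 libraries was left out, and the other 7 calls held without any 1 library. In a single fit over all 14 libraries, which shares the spread of PC3, 3 of the 9 passed, namely BTG2, DDB2 and PPM1D.

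MDM2 and BAX did not move with these genes. MDM2 was at 203.2, 229.4 and 214 CPM in normoxia and at 208.2, 233.7 and 195.6 CPM in hypoxia, a log2 fold change of -0.0025 with a 95% interval of -0.18 to 0.17. BAX was at 49.3, 48.7 and 52.4 CPM and then at 50.6, 54.6 and 54.4 CPM, a log2 fold change of 0.10 (95% interval -0.04 to 0.24). The conditions overlapped for both genes. By role, where 14.6% of all genes rose, the rises were those of 2 of 6 cell cycle genes, 1 of 3 feedback genes, 2 of 9 tested apoptosis genes, 2 of 4 repair genes and 2 of 8 stress genes. TP53I3 at 0.45, TNFRSF10B at 0.20 and CMBL at 0.22 on the log2 scale had adjusted p of 0.05237, 0.05188 and 0.05798 by edgeR and were not called.

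The same question was asked of PC3, which lacks p53. PPM1D rose, PLK3 and ZMAT3 fell, and the other 28 of 31 tested targets did not pass. The share called was 9.68%, against 11.3% of all 14309 genes tested, of which 6.03% rose and 5.29% fell, and the median log2 fold change was 0.0004 over the targets and 0.0023 over all genes. Over all genes 863 rose and 757 fell, which became 562 (3.93%) and 1733 (12.1%) with library totals in place of TMM scaling. That scaling moved the median of all genes to -0.10 and gave 0 targets higher and 5 lower.

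ZMAT3 was at 15.47, 15.44, 15.43 and 16.1 CPM in normoxia and at 11.4, 11, 10.96 and 10.0 CPM in hypoxia. All hypoxic libraries were below all normoxic ones, with a log2 fold change of -0.52 ± 0.07 (SE) (adjusted p = 0.002932, edgeR). PLK3 was at 10.4, 9.25, 10.3 and 9.96 CPM in normoxia and at 7.03, 6.53, 7.95 and 5.92 CPM in hypoxia. Again no hypoxic library reached the normoxic range, and the log2 fold change was -0.54 ± 0.11 (SE) (adjusted p = 0.01373, edgeR), lost without hypoxic replicate 2 or normoxic replicate 3. PPM1D was at 21.7, 23.7, 23.4 and 24.0 CPM and then at 28.9, 27.6, 27.8 and 26.3 CPM. Its rise of 0.26 ± 0.06 (SE) on the log2 scale (adjusted p = 0.03131, edgeR) was lost when any of 7 of the 8 libraries was left out, and under upper-quartile or total-count scaling.

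The replicate numbers were taken to pair the PC3 libraries. A fit with the replicate as a block called 14 of the 31 targets, 8 higher and 6 lower. Of all genes 14.9% were higher and 13.6% lower in that fit. All 3 calls of the unblocked fit were among them. With the block GDF15 rose by 0.69 ± 0.10 (SE) (adjusted p = 0.003474, edgeR), CDKN1A by 0.39 ± 0.10 (SE) (adjusted p = 0.02945, edgeR) and MDM2 by 0.15 ± 0.04 (SE) (adjusted p = 0.04647, edgeR) on the log2 scale. ACER2, CCNG1, DRAM1 and PHLDA3 also rose, and FAS, PLK2, RRM2B and GADD45A also fell, by between 0.21 and 0.64 on the log2 scale.

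The values of GDF15 show what the block changes. They went from 569 to 717.4 CPM in replicate 1, from 83.1 to 164.2 in replicate 2, from 108.2 to 174.6 in replicate 3 and from 88.35 to 148.6 in replicate 4. Every pair rose, while the level in replicate 1 was several times that of the others. Without the pairing the log2 fold change was 0.51 ± 0.75 (SE) and was not called, and without both libraries of replicate 1 it was 0.81 ± 0.11 (SE) (adjusted p = 0.005767, edgeR). CDKN1A went from 62.6, 30.4, 28.7 and 27.8 CPM to 65.9, 37.2, 39.4 and 46.0 CPM, also up in every pair, and gave 0.50 ± 0.09 (SE) without replicate 1 (adjusted p = 0.01553, edgeR). With both libraries of replicate 1 left out, 2 targets were higher and 4 lower, where 7.04% and 5.42% of all genes were. With both of replicate 4 left out, 2 were higher and 2 lower, where 5.81% and 4.05% of all genes were. POLH was at 40.8, 38.7, 39.6 and 37.5 CPM in normoxia and at 46.2, 47.7, 46.9 and 27.2 CPM in hypoxia, so that replicate 4 alone fell. Its log2 fold change was 0.11 ± 0.16 (SE) and not called, and 0.25 ± 0.05 (SE) without both libraries of replicate 4 (adjusted p = 0.03513, edgeR).

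BBC3 stayed between 0.485 and 1.097 CPM in all 8 PC3 libraries, with a log2 fold change of -0.05 (95% interval -0.73 to 0.62). BAX was at 20.8, 24.4, 23.1 and 24.1 CPM in normoxia and at 18.5, 22.1, 22.5 and 23.0 CPM in hypoxia, a log2 fold change of -0.10 (95% interval -0.29 to 0.09). MDM2 was at 75.4, 80.0, 76.8 and 82.3 CPM and then at 84.2, 91.4, 84.7 and 86.6 CPM, with no overlap between the conditions and an adjusted p of 0.1251 by edgeR without the block. In PC3 DESeq2 called 2 targets higher and 4 lower. MDM2 was among the higher ones, at 0.15 on the log2 scale (adjusted p = 0.0452, DESeq2).

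**Figure D4:**
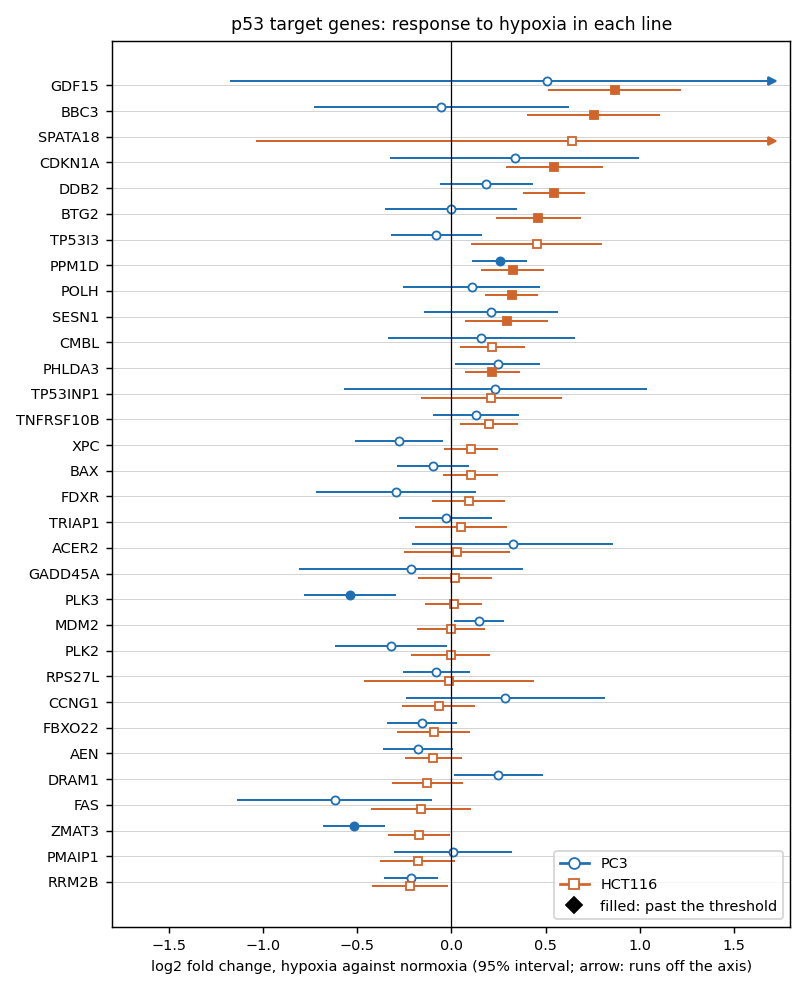
Log2 fold change of hypoxia against normoxia for the 32 genes tested in at least 1 line, in PC3 (circles, 8 libraries, no replicate block) and HCT116 (squares, 6 libraries), with 95% intervals from the edgeR fits; filled symbols passed the threshold. The 9 filled squares lie between 0.22 and 0.87, the filled circles are PPM1D, PLK3 and ZMAT3, and arrows mark the intervals of GDF15 in PC3 and SPATA18 in HCT116, which run off the axis.

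The last comparison tested whether the response to hypoxia differed between the lines, as the interaction of line and oxygen over all 14 libraries. Of 32 targets tested PLK3 passed, 3.12%, against 2.32% of all 15493 genes, of which 1.31% had a larger and 1.01% a smaller fold change in HCT116. Its fall in PC3 met levels of 31.1, 30.7 and 30.6 CPM in normoxic and 29.3, 33.1 and 29.7 CPM in hypoxic HCT116, which overlapped. The difference of the log2 fold changes, HCT116 minus PC3, was 0.54 ± 0.13 (SE) (adjusted p = 0.04104, edgeR). It was lost when any of 11 of the 14 libraries was left out, without both libraries of PC3 replicate 1 (adjusted p = 0.05136, edgeR), without the filter on low counts and under total-count scaling.

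Without the replicate block, the 9 genes that rose in HCT116 did not pass this test. The difference was 0.80 for BBC3 (95% interval 0.04 to 1.55; adjusted p = 0.2785, edgeR), 0.45 for BTG2 (0.05 to 0.84), 0.35 for DDB2 (0.03 to 0.67), 0.20 for CDKN1A (-0.58 to 0.97), 0.35 for GDF15 (-1.62 to 2.32) and 0.06 for PPM1D (-0.15 to 0.26), all on the log2 scale. The intervals of CDKN1A and GDF15 are wide enough to hold differences as large as the rises themselves. At an unadjusted p under 0.05, 7 targets were above and 1 below 0, where 8.35% and 7.67% of all genes were, and DESeq2 called PLK3 and ZMAT3. A fit with the replicate as a block paired the libraries of both lines by number, those of HCT116 too. With it 4.58% of all genes had a larger fold change in HCT116 and 3.85% a smaller one, or 8.44% together. Of the targets 4 had a larger one and 2 a smaller one. The larger ones were BBC3 at 0.77 ± 0.18 (SE), PLK3 at 0.54, BTG2 at 0.45 and DDB2 at 0.36, and the smaller ones CCNG1 at -0.34 and DRAM1 at -0.39, all on the log2 scale.

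The regulators of p53 and its relatives were followed as a separate list of 19 genes, of which 18 were tested. In normoxia 8 were higher in HCT116 (44.4%, against 40.5% of all genes) and 6 lower (33.3%, against 42.9%). TP73, which encodes the p53 relative p73, showed the largest difference, at 0.494 to 0.83 CPM in PC3 and 26.6 to 30.2 CPM in HCT116 (log2 difference 5.44). The ubiquitin ligase genes RFWD2 (COP1) at 3.62 and RCHY1 (PIRH2) at 1.88, MDM4, an inhibitor related to MDM2, at 0.81, and CDKN2A, whose ARF product restrains MDM2, at 0.52, were also higher on the log2 scale. PPP1R13B at -1.545, the kinase genes HIPK2 at -1.47 and ATM at -1.415, and TP53RK at -0.92 were the 4 furthest below PC3.

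In hypoxia 3 of the 18 regulators rose in HCT116 (16.7%, against 14.6% of all genes) and 5 fell (27.8%, against 11.3%). PPP1R13L, an inhibitor of p53, rose by 0.84, HIPK2 by 0.40 and TP73 by 0.31 on the log2 scale. RCHY1 fell by 0.55, ATM by 0.31, ATR by 0.25, and TP53BP2 and MDM4 by 0.23 each on the log2 scale. The calls of ATR, TP53BP2 and MDM4 were each lost when any of 4 of the 6 libraries was left out, that of ATM with 2 and that of TP73 with 1. In PC3 TP53BP2, an activator of p53, rose by 0.32 and ATR, a kinase of the replication stress response, fell by 0.33 on the log2 scale, calls lost in 3 and 5 of 8 fits with 1 library left out. MDM4 was at 9.53 CPM in hypoxic replicate 4 against 24.1 to 26.95 in the others. Its log2 fold change in PC3 was -0.52 and did not pass, and it was -0.27 without that library (adjusted p = 0.02429, edgeR). With the replicate block 3 of the 18 regulators rose in PC3 and 2 fell, where 14.9% and 13.6% of all genes did. TP53BP2 and ATR were among them, and MDM4 was at -0.60 and not called. TP53BP2 passed the interaction test, with a difference of -0.56 ± 0.11 (SE) on the log2 scale (adjusted p = 0.01241, edgeR). It passed with the block as well, as did PPP1R13L at 0.50.

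A further list of 34 genes reported as p53 targets was followed beside them. Of 33 tested in normoxia, 16 were higher and 13 lower in HCT116, or 87.9% called against 83.4% of all genes, with a median log2 difference of 0.08. TNFRSF10D, a decoy death receptor gene, had 19 counts over the 4 normoxic PC3 libraries and stood at 76.9 CPM in HCT116, and KITLG, TNFRSF10C and SERTAD1 were higher by 4.75, 3.02 and 2.24 on the log2 scale. IGFBP3, a secreted binder of insulin-like growth factors, was at 253.5 to 822.3 CPM in PC3 and at 0.262 to 0.464 CPM in HCT116, the largest difference in the other direction among the genes with reads in both lines, followed by THBS1 at -6.95, TRIM22 at -6.57 and GLS2 at -6.33 on the log2 scale. CASP1 had 0 counts in HCT116 and was at 0.165 to 0.444 CPM in normoxic PC3.

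In hypoxia 11 of 31 further targets rose (35.5%, against 14.6% of all genes) and 3 fell (9.68%, against 11.3%) in HCT116. In PC3 7 of 32 tested further targets rose (21.9%, against 6.03%) and the other 25 did not pass. With the replicate block 12 of the 32 rose in PC3 (37.5%, against 14.9% of all genes) and 4 fell (12.5%, against 13.6%). The furthest fall was that of THBS1, a secreted matrix glycoprotein, at -0.65 ± 0.08 (SE) on the log2 scale (adjusted p = 0.001936, edgeR). IGFBP3 rose in both lines, by 3.035 in HCT116 and 1.39 in PC3 on the log2 scale, and SFN (14-3-3 sigma) by 0.70 and 0.69. In PC3 the rises of IGFBP3 and E2F7 were each lost in 6 of 8 fits with 1 library left out. That of APAF1 was lost in 3 and that of ZNF385A in 1. Each of these calls was lost without normoxic replicate 3 of PC3. Each held with the block, IGFBP3 at 1.52. APAF1, the apoptosome scaffold, and KLF4, a transcription factor, also rose in both, TNFRSF10C by 0.72 in HCT116 and ZNF385A by 1.11 in PC3. PRKAB1, STEAP3 and PIDD fell in HCT116 by 0.33, 0.31 and 0.23 on the log2 scale, calls lost in 3, 1 and 4 of 6 such fits. SESN2, a brake on mTORC1, had log2 fold changes of 0.09 in HCT116 and 0.18 in PC3 and was not called in either. Without the block the 33 further targets tested for the interaction did not pass. With it 2 had a larger fold change in HCT116, IGFBP3 at 1.48 and THBS1 at 0.60, and 3 a smaller one, ZNF385A at -0.89, STEAP3 at -0.50 and C12orf5 at -0.33 on the log2 scale, where 4.58% and 3.85% of all genes did.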

How the data were processed

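RNA counts of 14 libraries were analysed, 4 PC3 and 3 HCT116 biological replicates per condition. The counts per gene were deposited by the authors, who removed reads of ERCC spike-in RNA before mapping paired reads to GRCh37. The submitters' processing notes name HISAT2 2.05, SAMtools, HTSeq 0.5.4p3 and DESeq2, and the methods state strict intersection counting in RefSeq genes. The strand setting and RefSeq release are not given in the sources used here. Spike-in counts were not used here, so all values are relative to the other genes.

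The 33 targets, the further lists and the tests were chosen with earlier results of these data known. Genes passing filterByExpr were fitted over the whole table by the quasi-likelihood method in edgeR 4.0.16 after scaling by TMM (limma 3.58.1, R 4.3.3), two-sided, with Benjamini-Hochberg adjustment over all genes tested and a threshold of 0.05. Standard errors and 95% intervals came from the same fit, by a formula adopted after an earlier one proved unstable near a fold change of 0; no p-value depends on it. The tests were tried on simulated counts. Values are given in every library for CDKN1A, MDM2, BBC3, BAX and GDF15, for up to 4 targets with the largest change in each direction and comparison, and for those past the interaction test; other targets past a threshold are named, and up to 4 genes per direction of the further lists. PLK2, POLH and other targets that did not pass were named after their values were seen. A count of 3 corresponds to 0.0201 to 0.0445 CPM, and intervals cover the spread between these libraries only.

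In PC3, same-numbered normoxic and hypoxic libraries deviated together (correlations of 0.692, 0.28, 0.152 and 0.295 over 14309 genes). Mismatched libraries correlated at -0.436 to 0.21, so the pairing was clear for replicate 1 and less so for the others. The replicate number was taken as a pairing, and the blocked values stand beside the results. Alternatives were other scalings, DESeq2 1.42.0, other filters, a minimum log2 change of 1, 1 fit over 14 libraries, the replicate block and each library left out. Leaving out both libraries of PC3 replicate 1 or 4 was added after seeing the data. Response elements were searched in GRCh37 around GENCODE v44 gene starts lifted to that build. Overlaps between genes were taken from the same annotation, not from the RefSeq genes used for counting. A regulator and a tissue marker of the lists are not reported here.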

Additional observations from a re-analysis of the deposited data

Results flagged for a closer look

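Among 74 groups of 4 PC3 libraries, for genes or library totals, 11 held 1 library apart from the other 3 by Dixon's test. A rate of 1 in 20 would give 3.7. That number is only a rough guide, since the groups share the same libraries. EDA2R, with 0 counts in PC3, was among the groups and could not be flagged. In normoxia replicate 1 was high for CDKN1A at 62.62 CPM (the others 27.8 to 30.4), for GADD45A at 72.37 CPM (39.39 to 40.23) and for GDF15 at 569 CPM (83.13 to 108.2), and low for FDXR at 11.92 CPM (15.75 to 16.46). In hypoxia the same replicate was high for GDF15 at 717.4 CPM (148.6 to 174.6), TP53INP1 at 13.52 CPM (5.831 to 6.351) and ACER2 at 5.874 CPM (3.546 to 3.881). The hypoxic library of replicate 4 was low for POLH at 27.17 CPM (46.19 to 47.68) and MDM4 at 9.526 CPM (24.11 to 26.95) and high for RPS27L at 11.77 CPM (10.13 to 10.32). Normoxic replicate 4 was apart for ZMAT3 at 16.08 CPM, against 15.43 to 15.47, a gap that is small beside the fall in hypoxia.

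The response to hypoxia differed between the lines, by the interaction test of edgeR, for the target PLK3 (0.5374 on the log2 scale, HCT116 minus PC3) and for the regulator TP53BP2 (-0.5594). The cause of these differences was not tested.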

How the results depend on the processing

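In PC3 the targets called higher and lower, 1 and 2, became 0 higher under upper-quartile scaling, 0 and 5 with total counts, 2 and 4 with DESeq2, 0 and 0 with a log2 change of at least 1, 2 and 4 in 1 fit over 14 libraries, 8 and 6 with the replicate block, 2 and 4 without the pair of replicate 1 and 2 higher without that of replicate 4. All genes became 562 higher and 1733 lower with total counts, 1383 and 1185 with DESeq2, 138 and 66 with the log2 minimum, 1246 lower in 1 fit, and 2125 and 1949 with the block. In HCT116 3 targets were lower with total counts and 1 with DESeq2, 0 were higher with the log2 minimum and 3 in 1 fit. All genes became 1286 and 3146 with total counts, 219 and 72 with the log2 minimum, and 938 and 795 in 1 fit. In normoxia the log2 minimum left 14 targets higher and 2 lower, and 3031 and 3717 of all genes. In the interaction 0 targets were higher with total counts, without a filter, with the log2 minimum or without the pair of PC3 replicate 1, 2 with DESeq2, and 4 higher and 2 lower with the block. All genes became 512 and 466 with DESeq2, 71 and 36 with the log2 minimum, 710 and 597 with the block, and 333 and 235 without the pair of replicate 4.

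SESN2 in HCT116 turned to -0.001432 with total counts and BBC3 in PC3 to 0.041 without the pair of replicate 1. With libraries left out, PC3 targets ranged from 0 to 2 higher and 1 to 4 lower (all genes 364 to 1143 and 189 to 942), HCT116 targets from 7 to 12 and 0 to 2 (1378 to 1853 and 1068 to 1486), normoxic targets from 20 to 23 and 3 to 5 (5936 to 6308 and 6276 to 6571), and interaction targets from 0 to 1 and 0 to 0 (94 to 423 and 78 to 294). Log2 values that changed sign there ranged in PC3 from -0.2457 to 0.236 for BBC3, -0.3995 to 1.716 for GDF15 and -0.008173 to 0.4239 for SESN2, in HCT116 from -0.07543 to 0.05965 for MDM2 and -0.05618 to 0.1988 for SESN2, and in the interaction from -0.1702 to 0.403 for CDKN1A, -0.8392 to 1.237 for GDF15, -0.2513 to 0.07026 for CDKN2A and -0.3307 to 0.08047 for SESN2. The cause was not tested. In HCT116 the same-numbered libraries correlated at 0.092, 0.152 and 0.0354 and share only a number; the replicate block there kept all 9 calls. Hypoxic PC3 libraries had the lowest depth.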
